A study of Mus musculus with 11 samples.

Results

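The maxillary molar germ of the wild-type mouse embryo at E14.5 was profiled by bulk RNA sequencing of poly-A selected RNA, and this account covers the 4 wild-type libraries of the 11 libraries in the study. They were chosen by genotype alone, as the columns labelled wild type, maxillary (Mx) and molar, and each gene was ranked by its mean over these 4 libraries. The table lists 16755 genes. The wild-type embryos were Cilk1+/+ littermates of Cilk1-deficient embryos on a C57BL/6 background and both sexes were included in the group. Each replicate was a pool with n = 6, and whether 6 germs or 6 embryos were meant is not stated in the sources used here. *Cilk1*, which encodes a ciliary kinase and stands in the table under its older symbol *Ick*, lay at log2 levels of 3.47, 3.58, 3.45 and 3.60 in replicates 1 to 4. The 7 remaining libraries came from 4 Cilk1 knockout and 3 compound mutant pools and were not compared here.

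At E14.5 the mouse molar is at the cap stage. An epithelial bud from the oral lining has folded around a condensed mass of neural crest-derived mesenchyme, and a transient signalling centre in the epithelium, the enamel knot, secretes Shh, Fgf, Bmp and Wnt ligands that set the position of cusps. The mesenchyme answers with transcription factors of the Msx, Dlx, Lhx and Barx families, and around it lie the dental follicle, the first bone of the jaw, vessels and nerves.

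Values are given on the deposited scale, log2(value + 1), and are called log2 levels. A level without the word log2 is the same value turned back to the linear scale, with values below 0 set to 0. The study's methods name FPKM, a read count per gene length and sequencing depth. For 15922 genes matched to a gene model, the level multiplied by the length of the longest transcript in kilobases summed to between 996575 and 1010280 in the 4 libraries, close to what FPKM values give. Levels were therefore compared between genes as values per length. Sequencing depth is unknown, since no counts are given. The summed level ran from 344855 to 358470 per library, and pairwise Pearson correlations over all genes ran from 0.995 to 0.998. Genes are not independent replicates, so these coefficients only describe the libraries. Replicate 3 was the highest library for 8 of 10 osteoblast, 11 of 11 skeletal muscle and 17 of 28 keratin genes, beside 26.4% of all genes. This is set out at the end, and values that rest on replicate 3 are given by library. Its deviations from the wild-type mean over all genes ran opposite to those of Cilk1 knockout replicate 3 (Pearson r of -0.85), as in the other same-numbered pairs, so whether its pattern arose in its own RNA or from an adjustment of the values before deposit cannot be told apart. Replicate 4 was described with a later set of samples, so that set and that replicate cannot be told apart.

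Few genes carried much of the transcript level. Of the 16755 genes, 12934 had a mean level of 1 or more, 6970 reached 10, 473 reached 100 and 16 reached 1000. The 860 highest genes together held 50% of the summed level. The 100 highest held 22.5% ± 0.817 (SD, n = 4), with 21.5%, 23.3%, 22.9% and 22.2% in replicates 1 to 4. Over all genes the median SD between libraries was 0.07 on the log2 scale, and 90% of genes lay at or below 0.16.

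**Figure D1:**
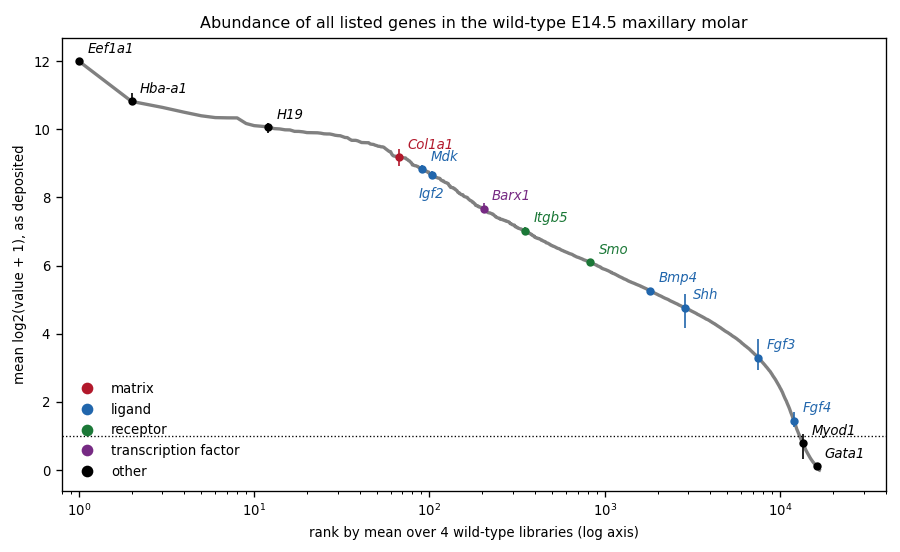
Mean log2(value + 1) over the 4 wild-type libraries (vertical axis) against the rank of each of the 16755 genes (horizontal log axis), with 15 genes marked by class and vertical bars from the lowest to the highest library. The dotted line is a level of 1. *Eef1a1* stood at 11.9998, the highest transcription factor *Barx1* at 7.68 and rank 204, and the enamel knot ligand *Fgf4* at 1.45.

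*Eef1a1*, the elongation factor that brings aminoacyl-tRNA to the ribosome (chr9:78478449-78489151, GRCm38), was the highest gene in every library. Its log2 levels were 11.88, 12.09, 11.98 and 12.05, a mean of 11.9998 ± 0.09 (SD, n = 4), and it alone made up between 1.09% and 1.21% of the summed level. The adult alpha globin *Hba-a1* (chr11:32283511-32284465) came next at 10.73, 10.70, 11.07 and 10.76, with replicate 3 above the other 3. *Rplp1*, an acidic protein of the ribosomal stalk, lay at 10.58, 10.74, 10.66 and 10.60. *Rplp1* was above *Hba-a1* in replicate 2, and the order of their means held in 3 of 4 libraries.

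Protein synthesis dominated the head of the ranking. Cytosolic ribosomal protein genes were 21 of the 30 highest and 59 of the 100 highest genes. Together, the 85 listed ribosomal protein genes held 14.8% ± 0.752 (SD, n = 4) of the summed level, at 14.1%, 15.8%, 15.02% and 14.5% in the 4 libraries. Reads of ribosomal protein genes can be split with near-identical processed copies, so that single members are uncertain. One such member, *Rps27*, named after its values were seen, lay at 3.02, 4.23, 2.81 and 3.01, far below the median of 9.17 for its list. The 61 listed translation factors added 3.16% ± 0.1001, led by *Eef1a1*, *Tpt1* at 10.34 and *Eef2* at 9.68.

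The other 9 of the 30 highest genes were *Eef1a1*, *Hba-a1*, *Tpt1*, *Ptma*, *H19*, *Tmsb10*, *Ppia*, *Actb* and *Actg1*. *H19* (chr7:142575529-142578143), a long non-coding RNA transcribed from the maternal chromosome, ranked 12 at 9.90, 10.17, 10.08 and 10.12. *Ptma*, the nuclear protein prothymosin alpha, lay at 10.34 ± 0.08. The cytoskeletal genes *Actb* (9.92 ± 0.07) and *Actg1* (9.90 ± 0.08), both cytoplasmic actins, and *Tmsb10* (9.98 ± 0.14), which binds actin monomers, lay close together. *Ppia*, the prolyl isomerase cyclophilin A, lay at 9.82, 10.09, 10.10 and 9.74, the widest of the 30 with an SD of 0.18. Of the 29 neighbouring pairs among the 30 highest genes, 5 kept their order in all 4 libraries, and no pair below rank 9 did. With 4 libraries an exact two-sided sign permutation test cannot go below p = 0.13, and no p is given for any order.

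**Figure D2:**
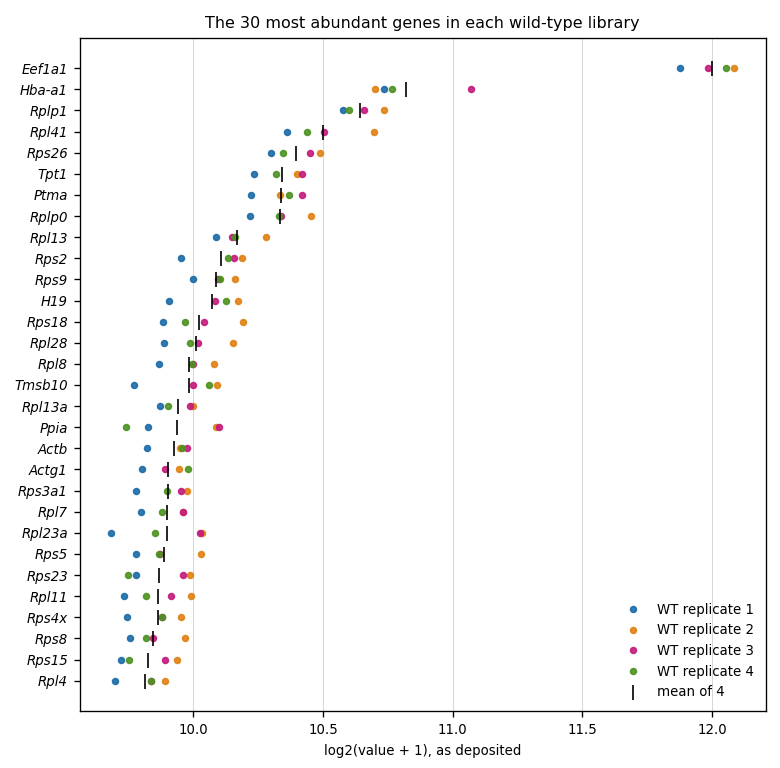
The 30 highest genes (vertical axis, highest at the top) with the log2(value + 1) of each wild-type library as coloured points and the mean of 4 as a black bar. *Eef1a1* is separated from all others in every library, while most neighbours further down overlap.

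The genes of the head of the ranking were short. Their longest annotated transcript had a median of 1248 bases over 99 of the 100 highest genes, against 3223 bases over the 15922 matched genes of the table. Without the ribosomal protein genes, the median was 1918 bases over 40 of the 41 left among the 100 highest. Among 83 ribosomal protein genes the slope of log2 level on log2 length was -0.23, and over all 15922 matched genes it was 0.13. For equal reads a value per length is higher for a short gene, and what part length has in the ranking was not tested.

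Other household classes held smaller shares. Their counts at a level of 1 or more stand beside 12934 of all 16755 genes. Respiratory chain and ATP synthase genes, led by *Atp5b* at 8.69, had 94 of 94 members at a level of 1 or more and 2.21% ± 0.0861 (SD, n = 4) of the summed level. Chaperones held 1.91% ± 0.0699, with *Hsp90ab1* at 9.76 and *Hspa8* at 9.27. RNA-binding and splicing factors held 1.77% ± 0.00897, the steadiest share of the 15 classes relative to its size, with 52 of 52 members at a level of 1 or more. Genes of DNA replication and mitosis, 28 of 28 at a level of 1 or more, held 0.987% ± 0.0397, with the replication clamp *Pcna* at 7.13, 7.18, 7.37 and 7.20. Glycolysis, led by *Pkm* at 8.87, held 0.575% ± 0.0361, and all 17 of its genes reached a level of 1.

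Sequence upstream of the start is shown for genes near the head of the ranking, taken only from those named in this account. Each carries the letters TATAAA on its own strand between 20 and 40 bases before the annotated start. They are a folding enzyme, a globin, a histone variant, a growth factor binding protein, a matrix protein and an imprinted RNA. Named genes were picked from many classes, so this mix of classes is not a result. Sequences are RefSeq's on GRCm38.p6, 30 bases each, written 5′ to 3′ on the gene's strand with TATAAA in capitals.
Ppia (rank 18, chr11:6415826-6415855, + strand): gcccgaaccgggTATAAAggaagccgcggc
Hbb-bt (rank 85, chr7:103813934-103813963, - strand): cagcattgggtaTATAAAgctgagcagggt
H3f3b (rank 95, chr11:116024514-116024543, - strand): gtgcagcgtctcTATAAAtatggaggcgtc
Igfbp4 (rank 106, chr11:99041204-99041233, + strand): ccagggggccggTATAAAgtcccgggagcc
Postn (rank 121, chr3:54361069-54361098, + strand): agcccagagctaTATAAActcagctctcca
Meg3 (rank 255, chr12:109540959-109540988, + strand): tctgcgcctttaTATAAAccccacccagcc

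These letters stood in that window for 2.41% of the 27025 genes of the promoter table and for 1.78% of the 12067 listed genes that have an entry there. Only 74% of the 100 highest genes had an entry, under 80%, so a comparison of the head of the ranking with the rest was void. Where a gene had more than 1 annotated start, as *Postn* and *Meg3* did, the window with the letters is shown. The motif is a description of these letters and says nothing of what drives the level.

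Beside 12934 of all 16755 genes, 438 of 563 listed transcription factor genes had a mean level of 1 or more. None was among the 100 highest genes of the table, 7 were among the 500 highest and 22 among the 1000 highest, and the class held 2.17% ± 0.0466 (SD, n = 4) of the summed level. Homeobox genes led it, with 66 of 98 at a level of 1 or more and 0.513% of the summed level.

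*Barx1* (chr13:48662998-48666507), a homeobox gene of the proximal jaw mesenchyme where molars form, was the highest transcription factor at rank 204, with log2 levels of 7.58, 7.64, 7.83 and 7.66. *Msx1* (chr5:37820485-37824583), which the tooth bud mesenchyme needs to pass to the cap stage, lay at 7.51, 7.68, 7.27 and 7.78. The libraries of these genes overlapped, and *Barx1* was above *Msx1* in 2 of 4. *Id3*, an inhibitor of basic helix-loop-helix factors induced by Bmp signals in many tissues, followed at 7.33, 7.55, 7.49 and 7.45.

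*Six2* (7.21 ± 0.19), *Prrx1* (6.94 ± 0.13) and *Prrx2* (6.54 ± 0.06) are homeobox genes of craniofacial mesenchyme. *Lhx8* (6.20 ± 0.20), a LIM homeobox gene of the tooth mesenchyme, was lower in replicate 3 (5.92) than in replicates 1, 2 and 4 (6.27, 6.38 and 6.22). *Twist1*, a basic helix-loop-helix gene of neural crest mesenchyme, lay at 6.21 ± 0.13.

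*Gli1* (chr10:127329882-127341974), both a transducer and a transcriptional target of hedgehog signalling, lay at 6.68, 6.53, 6.42 and 6.55. The Hippo pathway factor *Tead2* (6.66 ± 0.08), the E protein gene *Tcf3* (6.60 ± 0.05), *Trp53* (6.41 ± 0.08), *Sox4* (6.33 ± 0.10) and *Cbfb* (6.17 ± 0.05), the partner of the Runx factors, were also among the 15 highest. The order of neighbours held in all 4 libraries for 4 of the 14 pairs, among them *Id3* over *Six2*, *Six2* over *Prrx1* and *Prrx1* over *Tead2*.

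The highest members of other families lay lower. *Nfatc4* (6.08), the stress-response factor *Atf4* (6.07) and the E2f partner *Tfdp1* (6.02) led these. Others were the retinoic acid receptor *Rarg* at 5.79, *Nfix* at 5.59, the zinc finger gene *Osr2* at 5.92, *Tfap2b* at 5.52, *Pax9* at 5.52, the forkhead gene *Foxf1* at 5.48, *Tbx1* at 5.45, the Ets gene *Etv4* at 5.31 and *Tcf7l1* at 5.26. *Pax9*, which the tooth bud mesenchyme needs, was the only Pax gene of 4 listed with a mean level of 1 or more. *Tbx1*, expressed in dental epithelium, was higher in replicate 3 (5.63) than in replicates 1, 2 and 4 (5.40, 5.41 and 5.38). All 4 Runx-family entries and all 10 E2f genes reached a level of 1, beside 12934 of all 16755 genes.

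**Figure D3:**
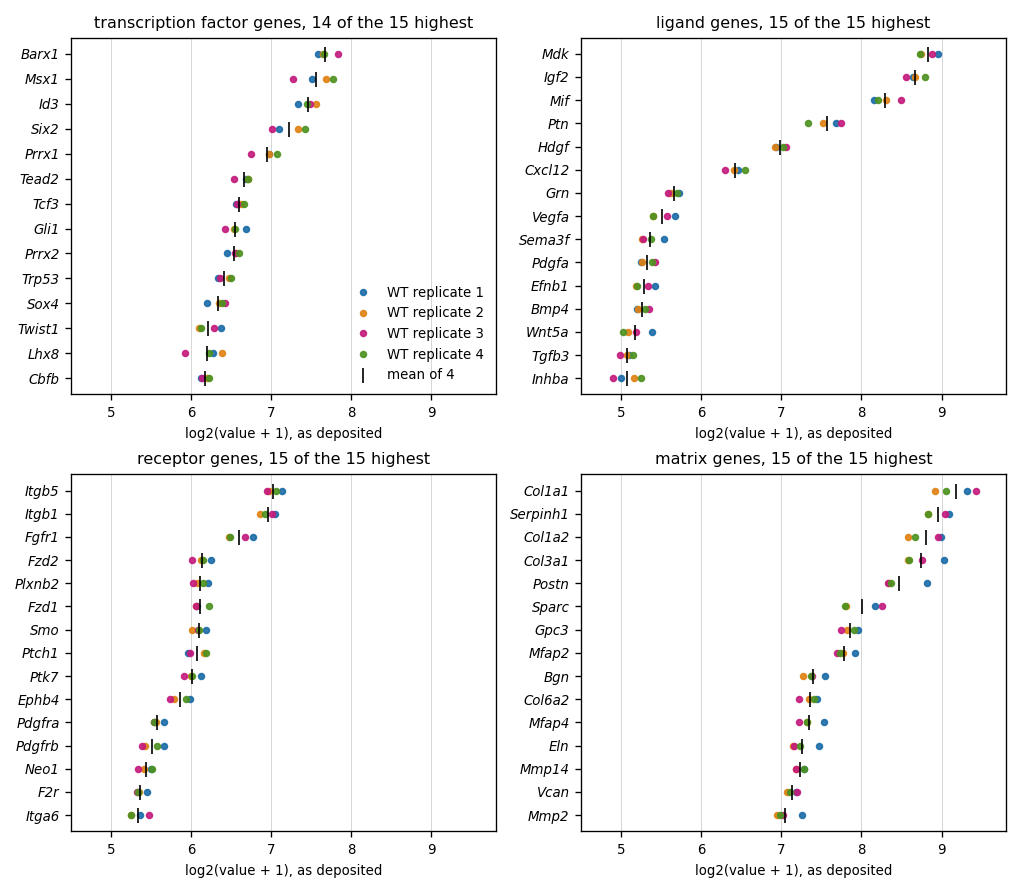
The 15 highest ligand, receptor and matrix genes and 14 of the 15 highest transcription factor genes, with log2(value + 1) on the horizontal axis, 1 coloured point per wild-type library and the mean of 4 as a black bar. Ligands and matrix genes spread over a wider range, 5.07 to 8.83 and 7.05 to 9.18, than transcription factors (6.17 to 7.68) and receptors (5.33 to 7.02).

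Of 208 listed ligand genes, 142 had a mean level of 1 or more, beside 12934 of all 16755 genes. The class held 0.874% ± 0.0318 (SD, n = 4) of the summed level. Heparin-binding and insulin-like growth factors led it, while the morphogens best known from the enamel knot were much lower. *Mdk*, the heparin-binding growth factor midkine (chr2:91929805-91932297), was the only ligand among the 100 highest genes, at 8.96, 8.74, 8.88 and 8.73. *Igf2* (chr7:142650766-142666816), an imprinted fetal growth factor beside *H19*, followed at 8.64, 8.67, 8.56 and 8.79. Their libraries overlapped and the order held in 3 of 4.

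*Mif* (8.29 ± 0.15), a macrophage migration inhibitory factor, *Ptn* (7.57 ± 0.19), the pleiotrophin relative of midkine, and *Hdgf* (6.98 ± 0.07) came next, each below its neighbour in all 4 libraries. *Cxcl12*, the chemokine that many mesenchymes secrete, lay at 6.45, 6.41, 6.29 and 6.54 and was the highest of 21 listed chemokines, of which 8 reached a level of 1. *Grn* (5.65), *Vegfa* (5.51), *Sema3f* (5.36), *Pdgfa* (5.33) and *Efnb1* (5.28) followed, the last 3 with overlapping libraries.

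*Bmp4*, a signal of both dental epithelium and mesenchyme, lay at 5.19, 5.21, 5.34 and 5.30, and *Wnt5a*, a mesenchymal Wnt, at 5.38, 5.08, 5.19 and 5.03. Of the Bmp and Gdf genes 10 of 18 reached a level of 1, of the Wnt genes 13 of 16 and of the Fgf genes 12 of 19. *Tgfb3* (5.08) and *Inhba* (5.07), a subunit of activin A from the tooth mesenchyme, closed the 15 highest. All 20 semaphorins, 8 ephrins, 9 Pdgf and Vegf genes and 4 R-spondins reached a level of 1, beside 12934 of all 16755 genes. *Fgf3*, made by the dental mesenchyme and the enamel knot, was the highest Fgf at 2.93, 3.25, 3.83 and 3.17.

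Secreted antagonists and binding proteins had a higher median log2 level, 3.94 over 38 genes, than the ligands, 2.06 over 208 genes. Of the 38, 32 reached a level of 1, beside 12934 of all 16755 genes. The 38 held 0.586% ± 0.0388 (SD, n = 4) of the summed level, with 8 members among the 500 highest genes against 5 of the 208 ligands. Both lists were drawn with earlier results of these data known, so these differences describe the lists and not the classes at large. *Igfbp4* (8.66, 8.57, 8.62 and 8.67) and *Igfbp5* (8.12, 7.94, 7.87 and 8.07) bind insulin-like growth factors. The follistatin-like gene *Fstl1* lay at 7.89 ± 0.07, and *Sfrp2*, which binds Wnt ligands, at 8.06, 7.77, 7.56 and 7.88. *Sostdc1* (chr12:36314139-36318452), an inhibitor of Bmp and Wnt signals around the enamel knot, lay at 7.36, 7.29, 7.34 and 7.35 and had the smallest SD of the 5, 0.03.

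Of 212 listed receptor genes, 164 had a mean level of 1 or more, beside 12934 of all 16755 genes. The class held 0.850% ± 0.0562 (SD, n = 4) of the summed level. Integrins led it. *Itgb5* (chr16:33829665-33949338) lay at 7.13, 6.96, 6.94 and 7.06 and *Itgb1*, the shared beta chain of many matrix receptors, at 7.04, 6.86, 7.004 and 6.91. *Fgfr1*, a receptor for Fgf ligands, followed at 6.77, 6.47, 6.67 and 6.48. *Itgb1* over *Fgfr1* and *Fgfr1* over *Fzd2* held in all 4 libraries, while *Fzd2* (6.13), *Plxnb2* (6.11), *Fzd1* (6.10), *Smo* (6.09) and *Ptch1* (6.07) could not be put in order.

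Wnt receptors reached a level of 1 for 20 of 20 genes, beside 12934 of all 16755 genes. The Wnt co-receptor *Ptk7* (6.01), the ephrin receptor *Ephb4* (5.86), *Pdgfra* (5.57) and *Pdgfrb* (5.51), receptors of mesenchyme and of pericytes, *Neo1* (5.43), the thrombin receptor *F2r* (5.36) and the laminin-binding integrin chain *Itga6* (5.33) completed the 15 highest. The highest Bmp receptor was *Bmpr1a*, at 5.02, 4.95, 5.003 and 5.04.

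The hedgehog pathway could be read from ligand to target in the wild-type germ. *Shh* (chr5:28456815-28467256), made in the germ by dental epithelium, lay at 4.76, 4.93, 5.18 and 4.18, an SD of 0.43 that is well above the median of 0.07 for all genes. The related ligands *Ihh* (0.47) and *Dhh* (0.37) were below a level of 1. The signal transducer *Smo* lay at 6.19, 6.00, 6.09 and 6.09 and the receptor *Ptch1*, also a target of the pathway, at 5.96, 6.16, 5.98 and 6.18. All 6 listed hedgehog receptor genes reached a level of 1, beside 12934 of all 16755 genes. Among them were *Gas1* at 5.001, *Boc* at 4.30 and *Cdon* at 3.53. *Gli3* (4.33) and *Gli2* (3.88) were lower than *Gli1* in mean log2 level. These further members were named with their values known.

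Of 219 listed matrix genes, 183 had a mean level of 1 or more, beside 12934 of all 16755 genes. The class held 2.44% ± 0.224 (SD, n = 4) of the summed level, at 2.75%, 2.22%, 2.43% and 2.34% in the 4 libraries, with replicate 1 the highest. Of these classes it had the most genes near the head, with 4 in the 100 highest and 24 in the 500 highest. Without crosslinking enzymes, processing factors and proteases, the share was 1.99%.

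Fibrillar collagens and their chaperone led the matrix class. *Col1a1* (chr11:94936224-94953042) lay at 9.32, 8.91, 9.43 and 9.05, *Col1a2* at 8.99, 8.58, 8.95 and 8.67 and *Col3a1* at 9.04, 8.58, 8.76 and 8.60. Replicates 1 and 3 were the higher pair for all these collagens. *Serpinh1*, the endoplasmic reticulum chaperone of collagen, had the same pattern at 9.09, 8.83, 9.05 and 8.83. Both type I collagen chains are made by mesenchyme and by bone, and the bone markers of replicate 3 are given below.

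*Postn* (chr3:54361109-54391037), the matricellular protein periostin of dental follicle and periosteum, lay at 8.82, 8.34, 8.34 and 8.36, so that replicate 1 stood above the other 3. *Sparc*, a collagen-binding glycoprotein, lay at 8.17, 7.81, 8.25 and 7.796. The cell-surface proteoglycan *Gpc3* (7.86 ± 0.10), the microfibril genes *Mfap2* (7.78 ± 0.10) and *Mfap4* (7.35 ± 0.13), the proteoglycan *Bgn* (7.39 ± 0.11) and the elastic fibre protein *Eln* (7.25 ± 0.15) followed. *Mmp14* (7.23 ± 0.06) and *Mmp2* (7.05 ± 0.14) encode matrix proteases, and *Vcan* (7.13 ± 0.06) the large proteoglycan versican.

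Basement membrane genes held 0.181% of the summed level, led by *Agrn* at 6.66. Of these, 20 of 20 had a level of 1 or more, beside 12934 of all 16755 genes. Tooth and bone matrix genes were the least represented of the 7 matrix families, with 5 of 7 at a level of 1 or more and 0.0170% of the summed level. That share rested on replicate 3, at 0.00875%, 0.0110%, 0.0352% and 0.0131% in replicates 1 to 4. Collagens made up 0.806% ± 0.0890 (SD, n = 4).

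The tissues in the dissected germ were read from 28 lists of markers. A list was counted as represented when over 50% of its listed genes had a level of 1 or more in every wild-type library, and 11 of 28 lists met this. Over the whole table, 12607 of 16755 genes had such a level in every wild-type library. That share is itself above 50%, so meeting the rule does not by itself show that a tissue was there. Oral keratinizing epithelium (63.6%), erythroid cells (66.7%), olfactory neurons (66.7%), Schwann cells and glia (70%) and macrophages (72.7%) met the rule but lay below that share. In bulk RNA, fewer cells of a type and less RNA per cell cannot be told apart, so the shares below are shares of RNA and not of cells. Lists whose genes are also made by other cells of the germ do not show that the named type was there.

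All 14 dental epithelium markers were at a level of 1 or more in every library. Basal keratin *Krt5* led at 8.62, 8.76, 9.04 and 8.59, and *Krt14* followed at 7.79, 8.15, 8.18 and 7.96. The cell adhesion genes *Perp* (6.07), *Epcam* (5.69) and *Cdh1* (4.95) and the epithelial factors *Trp63* (5.02) and *Grhl2* (3.04) were lower. *Sp6*, an epithelial factor needed for tooth shape, lay at 4.62, 4.89, 5.57 and 4.75. The list held 0.311% ± 0.0279 (SD, n = 4) of the summed level. *Krt17*, which is no marker in the list, was the second highest keratin, at 8.35, 8.87, 8.84 and 8.71.

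All 12 markers of the enamel knot list were at a level of 1 or more in every library, at low to middle log2 levels. *Shh* (4.76), *Lef1* (4.66) and *Bmp7* (4.11) led, and *Cdkn1a*, the cell cycle inhibitor of the non-dividing knot, lay at 3.31, 3.98, 4.08 and 3.79. *Wnt10b* (3.48), *Msx2* (3.59), *Wnt10a* (2.87), *Dkk4* (2.12) and *Edar* (1.93) lay lower. *Fgf9* (1.73), *Fgf4* (1.55, 1.32, 1.69 and 1.25) and *Fgf20* (1.21, 1.26, 1.82 and 1.52) were near the floor. *Lef1*, *Bmp7*, *Msx2* and *Cdkn1a* are also expressed outside the knot, so they do not show it by themselves. The knot list held 0.0341% ± 0.00442 of the summed level.

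All 14 dental mesenchyme markers were likewise above the floor in every library, and the list held 0.325% ± 0.0152 (SD, n = 4), close to the dental epithelium list. After *Barx1*, *Msx1*, *Sostdc1*, *Prrx1*, *Twist1* and *Lhx8*, which are described above, came *Lhx6* (6.13 ± 0.15), *Dlx2* (5.90 ± 0.15), *Dlx1* (5.61 ± 0.15) and *Runx2* (5.45 ± 0.11), which encode homeobox and Runt factors of the tooth mesenchyme. *Fgf10* was the lowest of the list at 2.95, 2.72, 3.06 and 2.70. By in situ hybridization at a later stage, the study saw *Sostdc1* in both epithelium and mesenchyme of the wild-type first molar. Its level here can therefore not be assigned to mesenchyme alone. The lists were of equal size, but their genes differ in level, so the shares do not give a ratio of tissues.

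**Figure D4:**
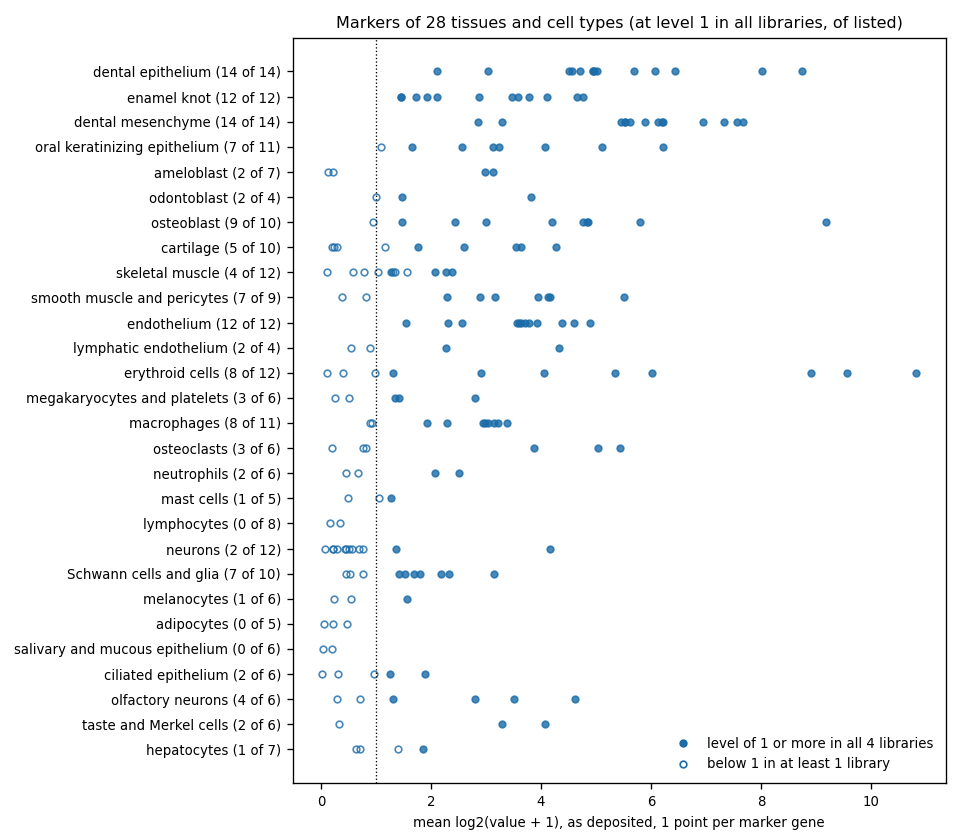
Mean log2(value + 1) over the 4 wild-type libraries of each marker gene in 28 tissue and cell type lists, filled where the level was 1 or more in all 4 libraries and open where it was not, with the count of filled markers of those listed beside each name. The dotted line is a level of 1. Dental epithelium, enamel knot, dental mesenchyme and endothelium had all listed markers filled, while lymphocytes, adipocytes and salivary epithelium had none.

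Bone around the germ was represented by 9 of 10 osteoblast markers. Besides *Col1a1* these were *Alpl* (5.80), the osteoblast factor *Sp7* (4.84, 4.72, 5.01 and 4.76) and *Ibsp*, bone sialoprotein, at 4.002, 4.02, 6.47 and 4.92. The late marker *Bglap*, osteocalcin, was below a level of 1 except in replicate 3, at 0.78, 0.53, 2.06 and 0.40. Of the osteoclast list 3 of 6 met the floor, *Ctsk* at 5.44, *Mmp9* at 5.05 and *Acp5* at 3.88, while *Calcr* (0.19), *Ocstamp* (0.76) and *Dcstamp* (0.82) did not.

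Vessels were represented by 12 of 12 endothelial markers, from *Cdh5*, the junction cadherin, at 5.06, 4.81, 4.79 and 4.90 down to *Sox17* at 1.55. The list held 0.0440% ± 0.00437 (SD, n = 4) of the summed level. Mural cell genes *Pdgfrb* and *Rgs5* (4.17) were above the floor, as were the contractile genes *Acta2* (3.75, 4.34, 4.19 and 4.20) and *Tagln* (3.65, 4.21, 4.04 and 3.92), while *Myh11* (0.82) and *Cnn1* (0.38), also contractile, were not. Of the lymphatic list *Pdpn* (4.33) and *Flt4* (2.27) were above it, and *Lyve1* (0.89) and *Prox1* (0.54), the factor that defines lymphatic identity, were not.

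Blood was prominent in level through globins. Erythroid markers held 0.905% ± 0.107 (SD, n = 4) of the summed level, 8 of 12 of them at the floor in every library. *Hbb-bs*, an adult beta globin, lay at 9.50, 9.36, 9.88 and 9.51 and *Hbb-bt* at 8.84, 8.71, 9.24 and 8.87, with replicate 3 above the other 3 for both. *Hba-a2*, which is nearly identical to *Hba-a1* in its transcript, was listed at 5.36, and the split of reads between them is uncertain. *Alas2*, the erythroid heme enzyme, lay at 2.90, while the erythroid factor *Gata1* (0.11) was below the floor.

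Macrophage markers were above the floor for 8 of 11, with the complement genes *C1qb* (3.39), *C1qa* (3.03) and *C1qc* (2.95) and the receptor *Csf1r* (2.98) within a narrow range. *Ptprc* and *Fcgr1*, the latter at 0.89, were below the floor, and *Adgre1* was not analysed here. The lymphocyte list had 0 of 8 at the floor, with *Cd79a* (0.35) and *Cd4* (0.17) the only 2 analysed here. In the neutrophil list *S100a8* (1.88, 3.11, 2.78 and 2.27) and *S100a9* (1.32, 2.42, 2.86 and 1.66) varied widely between libraries.

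For nerve, the glial list met the rule and the neuronal list did not. Their shares of the summed level were 0.00715% and 0.00632%. Schwann cell and glia markers met the floor for 7 of 10, with *Erbb3* (3.14) and the defining neural crest glial factor *Sox10* (1.85, 1.79, 1.78 and 1.77). *Foxd3*, *Cdh19* and *Gfap*, the last at 0.46, were below the floor. Of 12 neuronal markers only *Tubb3* (4.17) and *Stmn2* (1.37) met it, and *Snap25* (0.70), *Elavl4* (0.51), *Isl1* (0.45) and *Pou4f1* (0.08) did not. The olfactory list met the rule through *Gap43* (4.62), *Adcy3* (3.52), *Gng8* (2.80) and *Ebf2* (1.31), which other cells also express, while its defining gene *Omp* was listed at 0.28 and *Stoml3* at 0.71. That list is therefore not read as olfactory tissue.

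Keratins of stratified oral epithelium were above the floor for 7 of 11 listed genes, led by *Krt15* (6.23), *Krt6a* (5.12) and *Krt13* (4.24, 3.59, 5.22 and 3.28). The terminal genes *Lor* (1.66) and *Sprr1a* (1.09) were near it. Skeletal muscle met it for 4 of 12, with the myogenic factor *Myod1* at 0.32, 0.996, 1.05 and 0.77. Cartilage met it for 5 of 10, with *Col2a1* at 3.63 but *Acan* at 0.23 and *Matn1* at 0.20. Of the ameloblast genes analysed here, *Odam* at 3.12 and *Ambn* at 2.98 lay near the median log2 level of all genes, 3.02. *Enam* at 0.23 and *Klk4* at 0.14 were below the floor.

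Jaw position was described with 8 markers of the maxillary and proximal domain and 8 of the mandibular and distal domain. All 8 of the former were above the floor in every library, from *Barx1* to *Meis2* (3.14 ± 0.12), including *Pou3f3*, a marker of the maxillary process, at 5.18, 5.17, 4.95 and 5.22. Of the latter, *Dlx5* (4.84, 4.65, 5.12 and 4.45), *Dlx3* (4.58), *Dlx6* (2.25), *Dlx4* (1.81) and *Alx4* (1.49) were above it and *Isl1* (0.45) was not, and *Hand1* and *Hand2* were not analysed here. *Dlx5* and *Dlx3* are also made by bone and dental tissue outside the early mandibular domain. All 7 listed Hox genes, whose domain lies behind the jaws, were below a level of 1, the highest being *Hoxd8* at 0.66. Since 6 of the 8 maxillary and proximal genes are also in the dental mesenchyme list, and 5 of the 6 mandibular and distal genes analysed here were above the floor as well, these lists cannot tell an upper from a lower molar.

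Between wild-type libraries, 44 genes with a mean log2 level of 1 or more had an SD of 0.5 or more. Of these, 27 were highest in replicate 3 and 8 lowest in it. Over all genes, 26.4% were highest in replicate 3, and the share lowest in it was not counted. The 44 were picked for a wide spread, so a library that differs enters both the choice and the count. Leaving out 1 library at a time gave between 35 (without replicate 3) and 66 (without replicate 2) such genes. The bone genes *Ibsp* and *Spp1* (1.503, 2.05, 4.13 and 2.05), the collagenase *Mmp13* (1.11, 0.85, 2.53 and 0.50) and the mineral matrix gene *Dmp1* (0.77, 0.45, 2.02 and 0.81) were all highest in replicate 3.

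As whole lists, the share in replicate 3 over the mean of the other 3 libraries was 3.22 for tooth and bone matrix, 2.62 for mast cells, of which 3 genes were analysed here, and 2.17 for skeletal muscle, where 11 of 11 analysed genes were highest in replicate 3. It was 1.77 for neutrophils, 1.504 for oral keratinizing epithelium, 1.41 for cartilage, 1.33 for osteoblasts and 1.24 for erythroid cells. For the tooth's own tissues it was 1.24 for the enamel knot, 1.18 for dental epithelium and 0.917 for dental mesenchyme. Replicate 2 was also above replicates 1 and 4 for skeletal muscle (0.00367%, 0.00713%, 0.0103% and 0.00344% in replicates 1 to 4). The same held for neutrophils (0.00140%, 0.00351%, 0.00401% and 0.00189%). Osteoblast shares were 0.232%, 0.174%, 0.266% and 0.195%, with replicate 1 next below replicate 3. What part tissue beside the germ has in these differences was not tested. Without replicate 3 the mean of *Ibsp* was 4.31, that of *Spp1* 1.87 and that of *Krt13* 3.70, and 11 of 28 tissue lists met the rule in the other 3 libraries.

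The embryonic globins went the other way. *Hbb-y*, the embryonic beta-type globin of primitive red cells, lay at 6.22, 6.42, 4.82 and 6.65, while adult beta globins were highest in replicate 3. Embryonic genes *Hbb-y* and *Hbb-bh1* made up 5.95%, 7.46%, 1.80% and 7.81% of the beta-type globin level, and *Hba-x* made up 0.961%, 1.01%, 0.414% and 1.196% of the alpha-type level. *Xist*, the RNA of the inactive X chromosome in females, lay at 5.80, 4.57, 2.44 and 4.27, lowest in replicate 3. The sexes within each pool are not given in the sources used here.

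**Figure D5:**
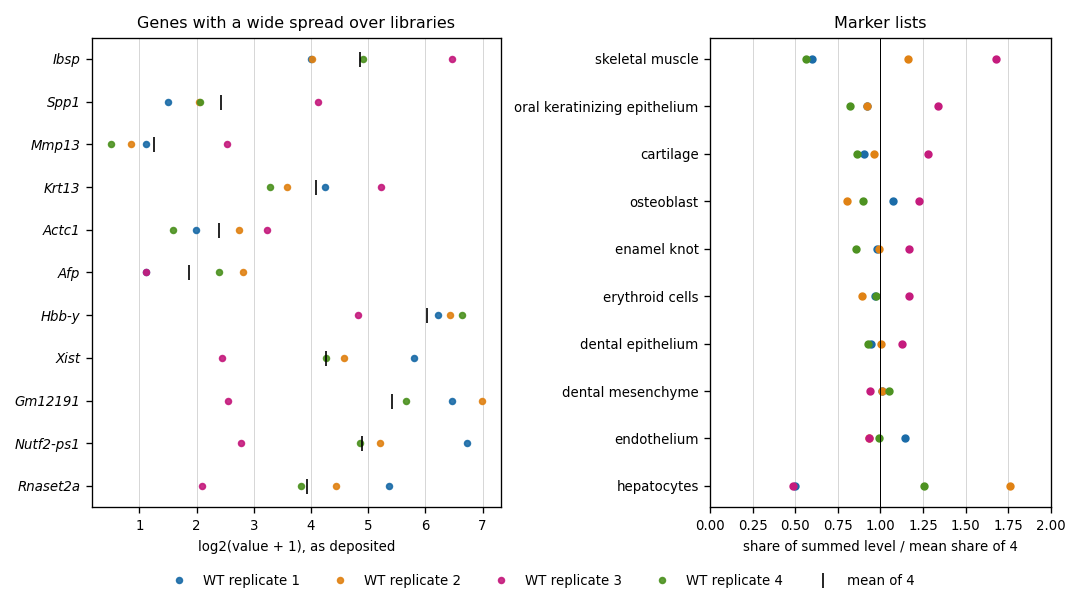
Left, log2(value + 1) of 11 genes with a wide spread in each wild-type library (coloured points) and the mean of 4 (black bar). Right, the share of the summed level held by 10 marker lists in each library divided by its mean over 4 libraries, where 1 is the mean. Replicate 3 is highest for *Ibsp*, *Spp1*, *Mmp13* and *Krt13* and for the muscle, keratin, cartilage and osteoblast lists, and lowest for *Hbb-y* and *Xist*.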

How the data were processed

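The authors aligned poly-A selected RNA-seq reads to the mouse genome (mm10), counted them per gene and computed FPKM, according to the study's methods. The submitters' processing notes name HISAT2 2.0.5 and featureCounts 1.5.0-p3, and strandedness is not given in the sources used here. The deposited values are on a log2 scale, log2(value + 1), with some below 0. How they were adjusted before deposit is not given in the sources used here. Same-numbered wild-type and Cilk1 knockout libraries deviated from their group means in opposite directions over 16755 genes (Pearson r of -0.74, -0.89, -0.85 and -0.79), so the spread between wild-type libraries, and every SD given here, may be too small, and the cause was not tested. Knockout columns served only for this check.

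Only the 4 wild-type columns were used, as 4 replicates, and 0 columns lacked a sample. Each gene's mean and SD were taken on the log2 scale, and shares on the linear level. With 1 group there is no comparison between groups and no test. The SD describes the spread of the deposited values between pools, which may be too small for the reason given above. Gene names are those of the table. Positions and lengths are from GENCODE vM21 (GRCm38), for 15922 of 16755 genes, and promoter windows are from RefSeq.

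Named genes were the 30 highest of the table, the 15 highest of each class, the 5 highest antagonists, the highest of each of 63 families, all genes of 28 tissue and 5 position lists, the 5 highest of 15 household classes, the 15 with the largest SD at a mean log2 level of 1 or more, *Xist* and *Cilk1*. Members and lists were chosen with earlier results of these data known. Some genes that are counted in the lists are not reported here by name. Listed genes with no value are not analysed here and counted as not met. Alternatives were the linear mean, the median, quantile normalization, other floors, smaller gene sets and leaving out each replicate. Scripts, checked on simulated data, used Python 3.11.15, pandas 2.3.3, numpy 2.4.6 and matplotlib 3.10.9.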

Additional observations from a re-analysis of the deposited data

Results flagged for a closer look

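In 24 of 401 named genes (5.99%) and 3 of 53 list shares, the highest or lowest of the 4 wild-type libraries lay apart from the others, with a gap to its neighbour over the whole range above 0.83. Chance flags about 1 in 20 such groups. The odd library was replicate 1 for 9 genes, replicate 2 for 2, replicate 3 for 10 and replicate 4 for 3. The cause was not tested, and each gap below is given as a share of the range.

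Replicate 3 was above the others for *Hba-a1* (0.832), the glycolytic *Pkm* (0.884), *Atp5b* (0.864), *Tbx1* (0.869), the osteoclast phosphatase *Acp5* (0.956), *Mitf* (0.939), *Lyve1* (0.848), the granule gene *Ngp* (0.863) and the mast cell tryptase *Tpsb2* (0.922), and below them for *Tead2* (0.870). For *Acp5* the log2 level was 4.24 in replicate 3 and 3.75, 3.77 and 3.76 in replicates 1, 2 and 4. The mast cell list share, with 3 genes analysed here, was also apart in replicate 3 (0.834).

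Replicate 1 was above the others for *Postn* (0.942), *Pdgfra* (0.833), *F2r* (0.838), the endothelial genes *Emcn* (0.888) and *Sox17* (0.928), *Alx1* (0.914) and *Gp9* (0.883). It was below them for *Lef1* (0.833) and *Mir599* (0.876), the latter listed at 0. The share of actin, thymosin and tropomyosin genes was lowest in replicate 1 (0.876) and that of the ciliated epithelium list highest in it (0.830). Replicate 2 was above the others for *Krt1* (0.897) and *Apoa2* (0.902). Replicate 4 was above them for *Fzd1* (0.897) and *Slit3* (0.916) and below them for *Plac8* (0.883), where it lay at 0.47 against 1.91, 1.97 and 2.11.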

How the results depend on the processing

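No paired analysis was possible because the results come from no test and only 1 group was used. Of 90 values recomputed for the main results, 84 kept their size within the limits used (a factor of 1.5 for counts and 1 SD for shares). With a floor of 5 in place of 1, 86 ligand genes and 6 tissue lists remained above it. Asking for at least 80% of the markers left 5 tissue lists. Without ribosomal protein genes the 100 highest held 16.9% of the summed level, and without crosslinking enzymes, processing factors and proteases the matrix share was 1.99%; fewer genes enter both. The number of genes with an SD of 0.5 or more ranged from 35 to 66 when 1 replicate was left out, an alternative chosen after seeing the data, as was leaving out replicates for the list shares. The 100 highest genes shared between 98 and 100 members with those under the linear mean, the median, quantile normalization and each left-out replicate. For single genes and lists, leaving out 1 of 4 libraries moves a mean by less than 1 SD by construction and says nothing about stability. The depth is unknown, so levels below 1 may rest on few reads.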

Other observations

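Imprinted genes are expressed from only the maternal or the paternal copy in some or all tissues. Of 22 listed, 20 had a mean level of 1 or more, beside 12934 of all 16755 genes, and together they held 1.01% ± 0.0407 (SD, n = 4) of the summed level. *H19* led, followed by *Gnas* (9.51, 9.60, 9.48 and 9.63), which encodes a stimulatory G protein subunit, *Igf2*, *Mest* (8.26), the cell cycle inhibitor *Cdkn1c* (7.97), *Grb10* (7.69) and the non-coding *Meg3* (7.36). Replicate 3 was the lowest library for 16 of the 22 and the highest for 2. Over all genes, 26.4% were highest in replicate 3, and the share lowest in it was not counted. *Peg3* lay at 5.72, 6.30, 5.68 and 6.00, while *Rtl1* (0.86) and *Phlda2* (0.76) were below a level of 1.

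Processed pseudogenes of abundant genes were among the highest non-coding entries, named here after their values were seen: *Gm15772* at rank 51 (9.34, 9.67, 9.55 and 9.45), *Gm10052* at rank 63 and *Rpl34-ps1* at rank 71. Their reads cannot be told apart from those of their parent genes here. The pseudogene *Gm12191* had the largest SD of all genes with a mean log2 level of 1 or more, at 6.47, 6.99, 2.55 and 5.66. *Nutf2-ps1* (6.73, 5.20, 2.77 and 4.86) and *Rnaset2a* (5.36, 4.43, 2.10 and 3.83) were also lowest in replicate 3. *Dlx1as*, a transcript antisense to *Dlx1*, stood at 6.70, above *Dlx1* at 5.61, and without known strandedness reads of the pair cannot be told apart.

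*Afp*, alpha-fetoprotein of the fetal liver and yolk sac, lay at 1.12, 2.81, 1.11 and 2.40, low in replicates 1 and 3. The hepatocyte list, with 4 of 7 genes analysed here and 1 at a level of 1 or more in every library, held 0.000864%, 0.00305%, 0.000844% and 0.00218% of the summed level. *Agt* (0.00, 1.57, 3.32 and 1.78) and *Gldn* (0.00, 2.24, 1.86 and 2.68) were each listed at 0 in replicate 1.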
